A study of Mus musculus with 6 samples.

Results

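Glycolysis breaks glucose down to pyruvate in the cytosol. Glucose enters the cell through facilitative carriers, hexokinase traps it as glucose 6-phosphate, phosphofructokinase commits it to the pathway, and lactate dehydrogenase with a proton-coupled carrier turns pyruvate into lactate and exports it. Keratinocytes draw much of their energy from this route, and glucose uptake and lactate output are known to be higher in proliferating and wounded epidermis.

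The 10 genes described here are Slc2a1, Hk1, Hk2, Pfkp, Aldoa, Pgk1, Eno1, Pkm, Ldha and Slc16a3, a set chosen by name for its place in glucose uptake, glycolysis and lactate export. The choice was made with earlier results of these data known, so shares of the set beside those of all genes are descriptions only. Each name matched 1 row of the 47729 genes in the deposited count table. All 10 passed the filter on low counts, which kept 17023 genes. The libraries came from epidermis of wild-type C57BL/6 mice that received AKBA gel (3 libraries) or control gel, a blank gel (3 libraries), on the skin. The name AKBA usually stands for a boswellic acid derivative found in Boswellia resin. An enzyme, Dispase II, had been used to peel the epidermis away. The control libraries carry the letters IMQ in their descriptions, which the labels do not spell out. The labels do not state age, sex or any further treatment of the skin. They also do not say whether each library is a separate animal, so each p-value reflects the variation among these 6 libraries alone, and that variation may be technical. Levels are CPM, counts scaled by TMM to a common library total of 1e+06, and levels of different genes are set side by side only as the deposited FPKM, which divides by gene length.

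The libraries held 19066045 to 22760432 counts. Epidermal markers were abundant, with Krt10, a suprabasal keratin, at 19341 ± 5814 CPM under AKBA gel, against 9999 ± 3447 CPM under control gel (SD, n = 3 each). Transcripts of other tissues were present as well. Summed levels of 12 skeletal muscle markers were 6736 to 7836 CPM under AKBA gel, against 4935 to 9577 CPM under control gel, and those of 9 fibroblast markers were 20058 to 27059.9 CPM under AKBA gel, against 20395 to 36762 CPM under control gel. The values below describe this mixed tissue, in which fewer cells of a type and less RNA per cell cannot be told apart.

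Most of the glycolysis genes had lower mean levels in AKBA-treated epidermis, none of them past the edgeR threshold, and the hexokinase gene Hk2 had the largest difference of the 10. Hk2 was at 116 ± 12.2 CPM under AKBA gel, against 286 ± 153 CPM under control gel (SD, n = 3 each), 0.407 times the control mean. Its ubiquitous relative Hk1 was at 125 ± 11.0 CPM under AKBA gel, against 127 ± 11.8 CPM under control gel. Of the 10 genes 9 had a negative log2 fold change (AKBA gel over control gel), against 49.6% of all genes tested. The median over the 10 genes was -0.49, beside 0.00 over all genes. By edgeR's quasi-likelihood test with Benjamini-Hochberg adjustment over all genes, 0 of the 10 passed the threshold of 0.05, and 0% of the 17023 genes did. At an unadjusted p below 0.05 there were 5 of the 10, all lower with AKBA gel, where 7.01% of all genes were lower at that level. DESeq2's Wald test called 1 of the 10, Hk2, and 1.93% of the 15752 genes to which it gave an adjusted p, with 1.33% lower.

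**Figure D1:**
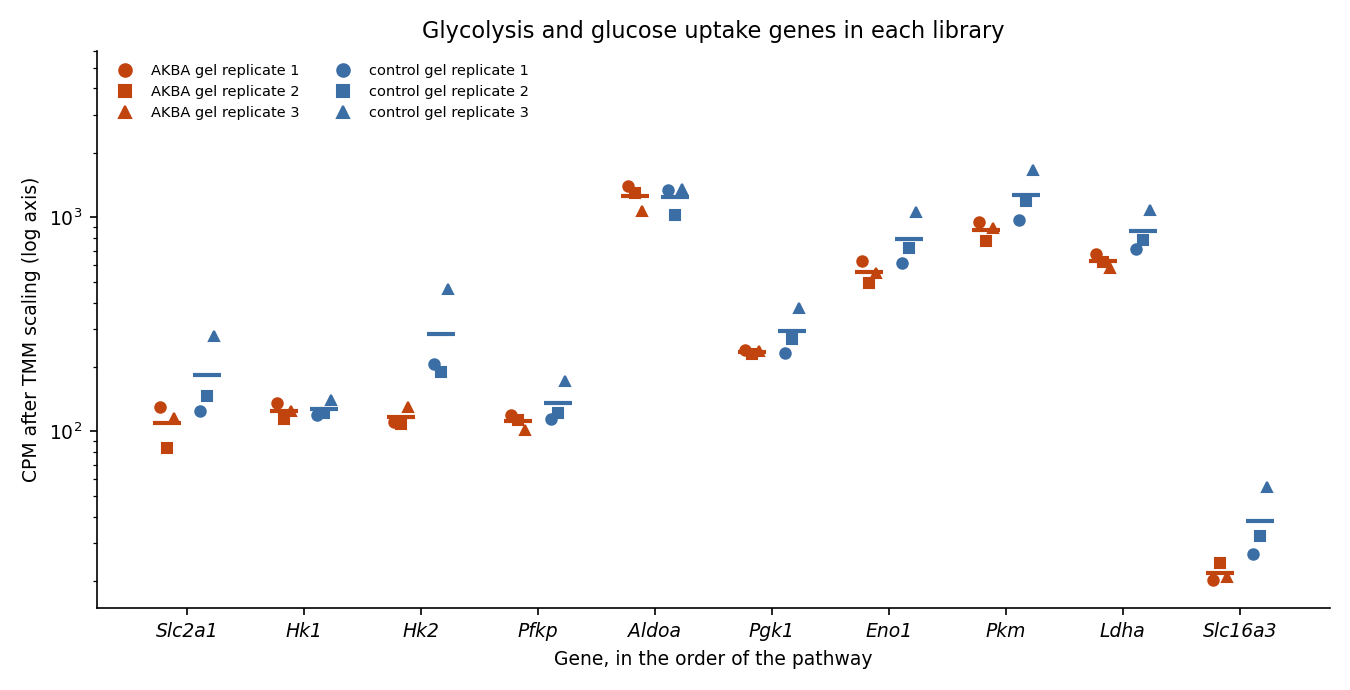
Level of each of the 10 genes in CPM on a log axis, with 1 point per library (red, AKBA gel; blue, control gel; the shape gives the replicate) and a bar at the group mean. Hk2, Pkm, Ldha and Slc16a3 had every AKBA library below every control library, and control gel replicate 3 was highest for 9 of the 10 genes.

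The promoters of Hk2 and Hk1 are shown because Hk2 had the largest difference of the 10 genes and Hk1, which serves the same step, one near 0, and that of Pgk1 as a gene in between. The sequences are the 250 bases before the transcription start in RefSeq on GRCm38.p6, written 5′ to 3′ on the gene's own strand. Capitals mark the letters ACGTG or GCGTG on either strand, the core that the transcription factor HIF-1 is known to recognise. The windows are chr6:82774455-82774704 (minus strand) for Hk2, chr10:62379909-62380158 (minus strand) for the outer of the 2 starts of Hk1, and chrX:106186850-106187099 (plus strand) for Pgk1.
Hk2: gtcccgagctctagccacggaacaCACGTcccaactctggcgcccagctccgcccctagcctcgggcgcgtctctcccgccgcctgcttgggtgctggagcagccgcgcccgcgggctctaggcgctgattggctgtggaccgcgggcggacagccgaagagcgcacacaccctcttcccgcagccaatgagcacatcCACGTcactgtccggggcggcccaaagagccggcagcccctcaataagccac
Hk1: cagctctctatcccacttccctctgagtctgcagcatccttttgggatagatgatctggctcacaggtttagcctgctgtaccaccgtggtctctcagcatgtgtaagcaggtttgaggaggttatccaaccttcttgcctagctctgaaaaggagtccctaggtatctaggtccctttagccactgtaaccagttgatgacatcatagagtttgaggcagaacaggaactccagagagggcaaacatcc
Pgk1: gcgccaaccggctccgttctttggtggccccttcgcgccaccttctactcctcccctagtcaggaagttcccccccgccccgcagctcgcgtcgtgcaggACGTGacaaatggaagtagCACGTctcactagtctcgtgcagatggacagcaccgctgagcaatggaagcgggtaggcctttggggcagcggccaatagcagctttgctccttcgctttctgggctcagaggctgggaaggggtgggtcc

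The Hk2 window held 2 ACGTG cores, the nearer beginning 52 bases before the start, and the Pgk1 window held 2 as well. The Hk1 window printed held neither core, whereas the window of its inner start held 3 GCGTG matches, the nearest beginning 12 bases before that start. Whether Hk1 differs from Hk2 in holding a core thus depends on which start is shown. RefSeq lists 17 windows for the 10 genes, since some have several starts, and which start these cells used cannot be read from counts per gene. ACGTG, searched on both strands, was in 8 of the 17 windows and in at least 1 window of 7 of the 10 genes, and in 16.6% of all 32817 windows of the same length. GCGTG was in 7 of the 17 windows and in 28.1% of all windows. The letters GGGCGG, which are not the HIF-1 core, were likewise in 11 of the 17 windows and in 32.7% of all windows. Some windows of Aldoa and of Eno1 overlap, so the same match can be counted more than once. A match is a description of letters, not a site of binding. Hk2 and Pgk1 both held 2 ACGTG cores at log2 fold changes of -1.30 and -0.31.

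Glucose enters keratinocytes mainly through Slc2a1, which encodes the carrier GLUT1 (chromosome 4, 119108711 to 119137983, GRCm38). It was at 131, 83.6 and 116 CPM in the AKBA libraries (replicates 1 to 3) and at 125, 147 and 280 CPM in the control libraries. The groups overlapped, because AKBA replicate 1 lay above control replicate 1. The log2 fold change was -0.74 ± 0.31 (SE; 95% interval -1.47 to -0.01), with an edgeR adjusted p of 0.369. The difference shrank to -0.30 without control replicate 3 and to -0.14 when AKBA replicate 2 was left out as well.

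Hexokinase makes glucose 6-phosphate, and Hk2 (chromosome 6, 82725025 to 82774454) is the isoform best known for induction in muscle, fat and growing cells. Hk2 was at 111, 108 and 130 CPM in the AKBA libraries and at 206, 189 and 463 CPM in the control libraries. Every AKBA library was under every control library, and control replicate 3 had more than any other library. The log2 fold change was -1.30 ± 0.34 (SE; 95% interval -2.08 to -0.51), with an adjusted p of 0.331 by edgeR and 0.00898 by DESeq2. In the authors' deposited table Hk2 was the only one of the 10 genes marked significant, with a log2 fold change of -1.23 and an adjusted p of 0.00388. That table marks 0.572% of its 47729 genes, of which 19134 had no counts in any library. This base is wider than that of the shares given for edgeR and DESeq2.

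The call on Hk2 was examined without the library that was highest. Without control replicate 3 the log2 fold change was -0.76 by edgeR (adjusted p = 0.63) and -0.77 by DESeq2 (adjusted p = 0.00222), and DESeq2 then called 0.333% of genes. With AKBA replicate 2 left out too, the values were -0.71 and -0.72, and the DESeq2 adjusted p was 0.0917. The size of the difference thus depended on control replicate 3.

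Hk1 (chromosome 10, 62268855 to 62379908), the housekeeping hexokinase, was at 136, 114 and 124 CPM in the AKBA libraries and at 119, 122 and 141 CPM in the control libraries. The groups overlapped, with a log2 fold change of -0.03 ± 0.12 (SE; 95% interval -0.30 to 0.25) that turned positive without AKBA replicate 2 or control replicate 3. Within each library the ratio of Hk2 to Hk1 does not depend on scaling between libraries. By FPKM, Hk2 stood at 1.16, 1.35 and 1.5 times Hk1 in the AKBA libraries and at 2.47, 2.22 and 4.70 times Hk1 in the control libraries. The log2 ratio of counts differed by -1.15 between the groups with no overlap (exact 2-sided permutation test, p = 0.1, the smallest that 3 against 3 allows; 0.225 after adjustment over 9 pairs).

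Phosphofructokinase is the main control point of the pathway. Pfkp, its platelet-type gene (chromosome 13, 6579768 to 6648777), was at 119, 113 and 102 CPM in the AKBA libraries and at 114, 122 and 172 CPM in the control libraries. The groups overlapped, and only control replicate 3 stood apart. The log2 fold change was -0.29 ± 0.17 (edgeR adjusted p = 0.499), and -0.08 without that library. The end of Pfkp overlaps Pitrm1 on the other strand, and 17.1% of the 50-base words of its transcript also occur in Pitrm1 transcripts. Pitrm1 held 32.6% of the counts of Pfkp and Pitrm1 together, so some of the reads may belong to either gene.

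Aldoa, aldolase A, which splits fructose 1,6-bisphosphate and is also the muscle aldolase, was the member with the least difference (chromosome 7, 126795234 to 126800751). It was at 1407, 1302 and 1068 CPM in the AKBA libraries and at 1348, 1021 and 1355 CPM in the control libraries. The groups interleaved, with a log2 fold change of 0.02 ± 0.19 (SE; 95% interval -0.43 to 0.47). It was the only one of the 10 genes not highest in control replicate 3. The 12 skeletal muscle markers had a median log2 fold change of 0.12, and none had groups that did not overlap.

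Pgk1, phosphoglycerate kinase, which makes the first ATP of the payoff phase (X chromosome, 106187100 to 106203699), was at 240.4, 229 and 238 CPM in the AKBA libraries and at 232, 269 and 379 CPM in the control libraries. The log2 fold change was -0.31 ± 0.19 (edgeR adjusted p = 0.502), and -0.09 without control replicate 3. Eno1, alpha-enolase (chromosome 4, 150236721 to 150248879), was at 624, 491 and 552 CPM in the AKBA libraries and at 612, 718 and 1058 CPM in the control libraries. Both genes overlapped between the groups through control replicate 1, which lay inside or below the AKBA range. The log2 fold change of Eno1 was -0.52 ± 0.23 (edgeR adjusted p = 0.38), and -0.26 without control replicate 3. Near copies limit how exactly these rows can be counted: 72.2% of the 50-base words of the Eno1 transcript and 68.0% of those of the Pgk1 transcript occur in transcripts of other genes. Those other genes held 2.99% of the counts of Eno1 and its copies together, and 0.854% of those of Pgk1 and its copies. Eno1b, the copy closest to Eno1, had a log2 fold change of -0.60 ± 0.24.

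Pkm, pyruvate kinase, forms pyruvate and ATP in the last step (chromosome 9, 59656368 to 59679375). It was at 953, 776 and 892 CPM in the AKBA libraries and at 975, 1191 and 1655 CPM in the control libraries. Every AKBA library was below every control library, though AKBA replicate 1 and control replicate 1 were close. The log2 fold change was -0.54 ± 0.22 (SE; 95% interval -1.07 to -0.02), with an edgeR adjusted p of 0.363, and it was -0.31 without control replicate 3. The counts are per gene, so the PKM1 and PKM2 splice forms cannot be told apart. Of the 50-base words of the Pkm transcript 34.4% occur in transcripts of other genes, which held 0.728% of the counts of Pkm and its copies together.

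Ldha, the lactate dehydrogenase subunit that favours lactate (chromosome 7, 46841475 to 46855627), was at 674, 621 and 580 CPM in the AKBA libraries and at 711, 788 and 1085 CPM in the control libraries. The groups did not overlap, with a log2 fold change of -0.46 ± 0.19 (SE; 95% interval -0.91 to -0.01; edgeR adjusted p = 0.364), and -0.26 without control replicate 3. Ldhb, the subunit typical of oxidative tissues, pointed the other way at 84.9 ± 19.5 CPM under AKBA gel, against 64.2 ± 8.48 CPM under control gel (log2 fold change 0.40 ± 0.18, edgeR adjusted p = 0.385). By FPKM, Ldha stood at 3.31, 4.57 and 4.02 times Ldhb in the AKBA libraries and at 5.11, 7.33 and 9.13 times in the control libraries. That ratio did not overlap between the groups (log2 difference -0.83, exact 2-sided permutation p = 0.1, adjusted 0.225).

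Slc16a3 encodes MCT4, the lactate exporter of strongly glycolytic cells (chromosome 11, 120948480 to 120960868). It was at 20.3, 24.2 and 20.8 CPM in the AKBA libraries and at 26.7, 32.4 and 55.2 CPM in the control libraries. Every AKBA library was under every control library, with a log2 fold change of -0.81 ± 0.26 (SE; 95% interval -1.41 to -0.20), an adjusted p of 0.334 by edgeR and 0.0885 by DESeq2. Without control replicate 3 it was -0.44. In the authors' deposited table its log2 fold change was -0.76 with an adjusted p of 0.0671. Slc16a1, the more widely expressed lactate carrier MCT1, was at 88.6 ± 14.0 CPM under AKBA gel, against 86.4 ± 7.66 CPM under control gel. The log2 ratio of Slc16a3 to Slc16a1 was -2.25, -1.99 and -1.80 in the AKBA libraries, against -1.54, -1.45 and -0.75 in the control libraries, a difference of -0.77 with no overlap (exact 2-sided permutation p = 0.1, adjusted 0.225).

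**Figure D2:**
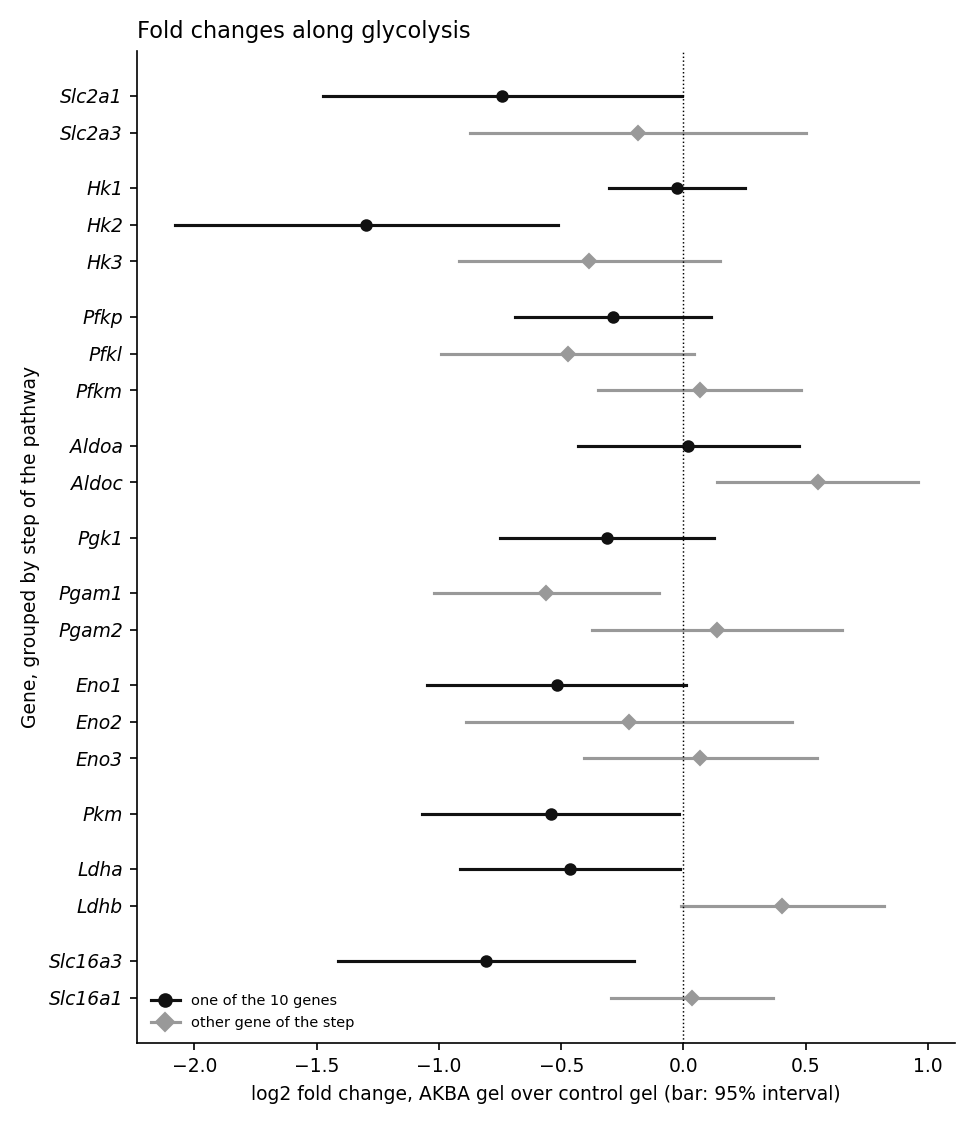
Log2 fold change (AKBA gel over control gel) by edgeR, with its 95% interval, for the 10 genes (black circles) and other genes of the same steps (grey diamonds), in the order of the pathway. Hk2 and Slc16a3 lie farthest to the left at -1.30 and -0.81, while Hk1, Aldoa and Slc16a1 lie between -0.03 and 0.04.

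Of the 10 genes, 4 had every AKBA library below every control library, namely Hk2, Pkm, Ldha and Slc16a3. Among all genes tested 9.1% did so in that direction and 9.28% in the other, which 0 of the 10 genes showed.

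The spread within the control group came largely from control replicate 3. It was the highest of the 6 libraries for 9 of the 10 genes, and for 21.4% of all genes. AKBA replicate 2 was the lowest for 6 of the 10 genes, and for 21.8% of all genes. Summed over the 10 genes the levels were 4415, 3863 and 3824 CPM in the AKBA libraries and 4469, 4599 and 6643 CPM in the control libraries. Every AKBA sum was below every control sum, by the widest margin for control replicate 3. Groups that do not overlap cannot come to overlap when a library is left out, so Hk2, Pkm, Ldha and Slc16a3 necessarily stayed apart without control replicate 3. No other gene of the 10 joined these 4, while the share of all genes apart in that direction rose from 9.1% to 12.3%. The median log2 fold change of the 10 genes was -0.26 without control replicate 3 and -0.16 when AKBA replicate 2 was left out as well. With 1 other library left out it ranged from -0.62 to -0.45.

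**Figure D3:**
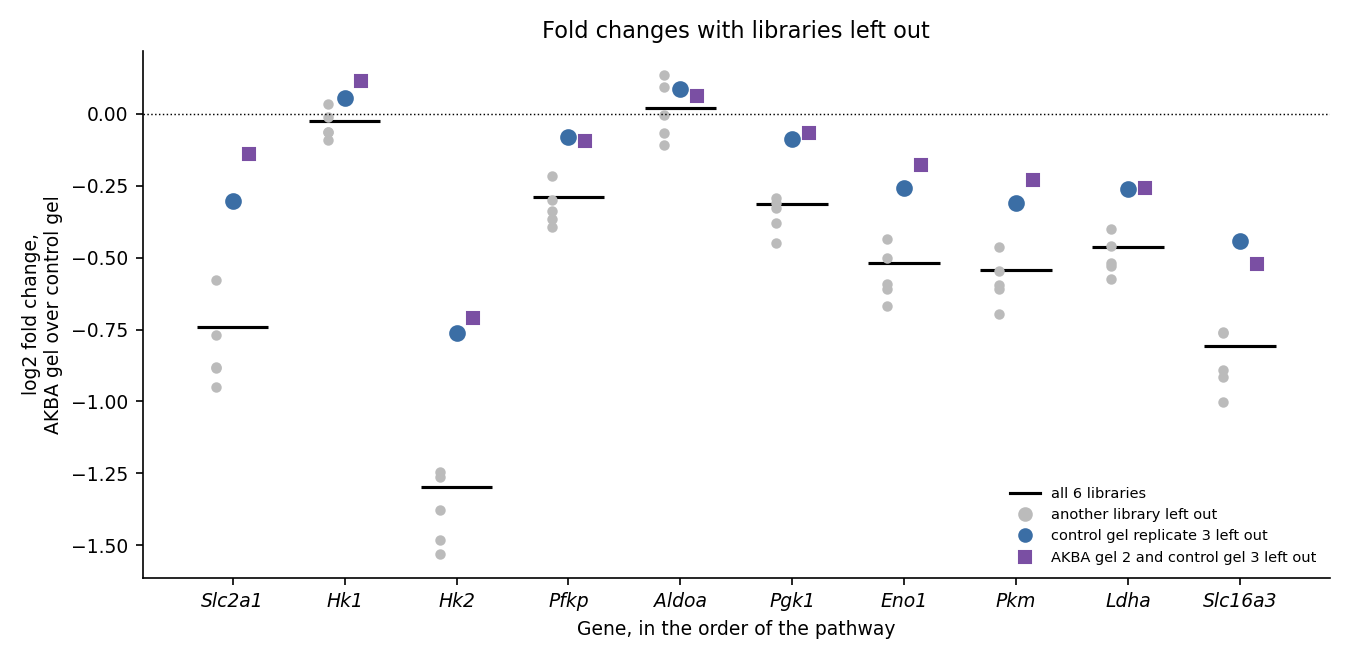
Log2 fold change of each of the 10 genes with all 6 libraries (black bar), with a single library left out (grey points, and blue for control gel replicate 3) and with AKBA gel replicate 2 and control gel replicate 3 both left out (purple squares). Leaving out control gel replicate 3 brought all 8 negative values shown for Slc2a1, Hk2, Pfkp, Pgk1, Eno1, Pkm, Ldha and Slc16a3 closer to 0, with Hk2 still at -0.76.

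Markers of the state and makeup of the tissue also differed between libraries. Keratinocyte genes of activated epidermis (Krt6a, Krt6b, Krt16, Krt17, Sprr1b, Sprr2d, Sprr2h, S100a8 and S100a9) summed to 6412, 1994 and 6142 CPM in the AKBA libraries and to 8415, 20776 and 36382 CPM in the control libraries. All 9 were highest in control replicate 3 and lowest in AKBA replicate 2. The 7 basal keratinocyte markers summed to 11071 to 15470.2 CPM under AKBA gel, against 14399.6 to 33169 CPM under control gel. They did not move together, and 5 of the 7 had a negative log2 fold change. In 1 of them, Krt14, every AKBA library was below every control library (6775 ± 2154 CPM against 15735 ± 8051 CPM). In 1, Krt15, every AKBA library was above (736 ± 171 CPM against 306 ± 170 CPM). Over all genes the shares were 9.1% below and 9.28% above. The 8 suprabasal markers summed to 35842 to 66374.5 CPM under AKBA gel, against 26543 to 40516 CPM under control gel, with the highest sum in AKBA replicate 2 and the lowest in control replicate 2. The 8 macrophage markers summed to 1255 to 1449 CPM under AKBA gel, against 1454 to 2027 CPM under control gel, and all 8 had a negative log2 fold change (median -0.48). Of 8 neutrophil markers 5 were tested, their sum was 28.0 to 44.4 CPM under AKBA gel, against 54.6 to 72.1 CPM under control gel, and Ly6g was at 0 counts in all 6 libraries. Of 10 immediate early genes 9 had a negative log2 fold change, with a median of -0.56, and 8 were highest in control replicate 3. They summed to 439 to 459 CPM under AKBA gel, against 455 to 806 CPM under control gel. All 7 endothelial markers had a negative log2 fold change, with a median of -0.34, and all were lowest in AKBA replicate 2. They summed to 201 to 357 CPM under AKBA gel, against 335 to 442 CPM under control gel. The 14 cell cycle genes summed to 710, 862 and 1140.3 CPM in the AKBA libraries, against 844, 1251 and 898 CPM in the control libraries, and 0 of them were highest in control replicate 3 or lowest in AKBA replicate 2. All 14 had a negative log2 fold change, with a median of -0.14. The part of these in the values of the glycolysis genes was not tested.

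Per length, the 10 genes spanned a wide range of levels. With AKBA gel the order by mean FPKM was Pkm (339.8 ± 39.2), Aldoa (337 ± 31.5), Ldha (211 ± 8.30), Pgk1 (106 ± 6.41), Eno1 (104 ± 12.5), Slc2a1 (31.7 ± 7.13), Hk2 (19.8 ± 3.07), Hk1 (14.8 ± 1.38), Pfkp (11.95 ± 0.401) and Slc16a3 (4.13 ± 0.386). The ranges of Pkm and Aldoa overlapped, as did those of Pgk1 and Eno1. With control gel the order was Pkm (479.8 ± 101), Aldoa (325 ± 43.3), Ldha (283 ± 46.1), Eno1 (145 ± 32.7), Pgk1 (128 ± 25.0), Slc2a1 (50.9 ± 19.6), Hk2 (46.3 ± 21.5), Hk1 (14.7 ± 0.43), Pfkp (14.2 ± 2.33) and Slc16a3 (6.98 ± 2.28). In that group the ranges overlapped between Aldoa and Ldha, Eno1 and Pgk1, Slc2a1 and Hk2, and Hk1 and Pfkp. In both groups the enzymes from aldolase onward had higher mean FPKM than Slc2a1, Hk1, Hk2 and Pfkp.

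Isoform ratios were compared in 9 pairs in all. Besides Hk2 to Hk1, Ldha to Ldhb and Slc16a3 to Slc16a1, the ratio of Aldoa to Aldoc also lay lower in every AKBA library than in any control library. Its log2 difference was -0.54, and Aldoc, the brain-type aldolase, was at 12.9 ± 1.16 CPM under AKBA gel, against 8.83 ± 1.68 CPM under control gel. The remaining 5 pairs overlapped between the groups. In these the log2 differences were -0.41 for Slc2a1 to Slc2a3, 0.15 for Pfkp to Pfkl, -0.34 for Pfkp to Pfkm, -0.58 for Eno1 to Eno3 and -0.22 for Eno1 to Eno2. Single libraries moved all 5 by over 1.5 times. Without control replicate 3 the differences were -0.10 for Slc2a1 to Slc2a3, 0.075 for Pfkp to Pfkl, -0.33 for Eno1 to Eno3 and 0.15 for Eno1 to Eno2. Without control replicate 1 they were -0.64 for Slc2a1 to Slc2a3, 0.24 for Pfkp to Pfkl, -0.52 for Pfkp to Pfkm, -0.95 for Eno1 to Eno3 and -0.40 for Eno1 to Eno2. Without AKBA replicate 3 Slc2a1 to Slc2a3 was at -0.16 and Eno1 to Eno2 at 0.06, and without AKBA replicate 1 Pfkp to Pfkl was at 0.094 and Eno1 to Eno2 at -0.47. Without control replicate 2 Eno1 to Eno2 was at -0.41. No pair passed the threshold of 0.05, which 3 libraries against 3 cannot reach with this test.

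**Figure D4:**
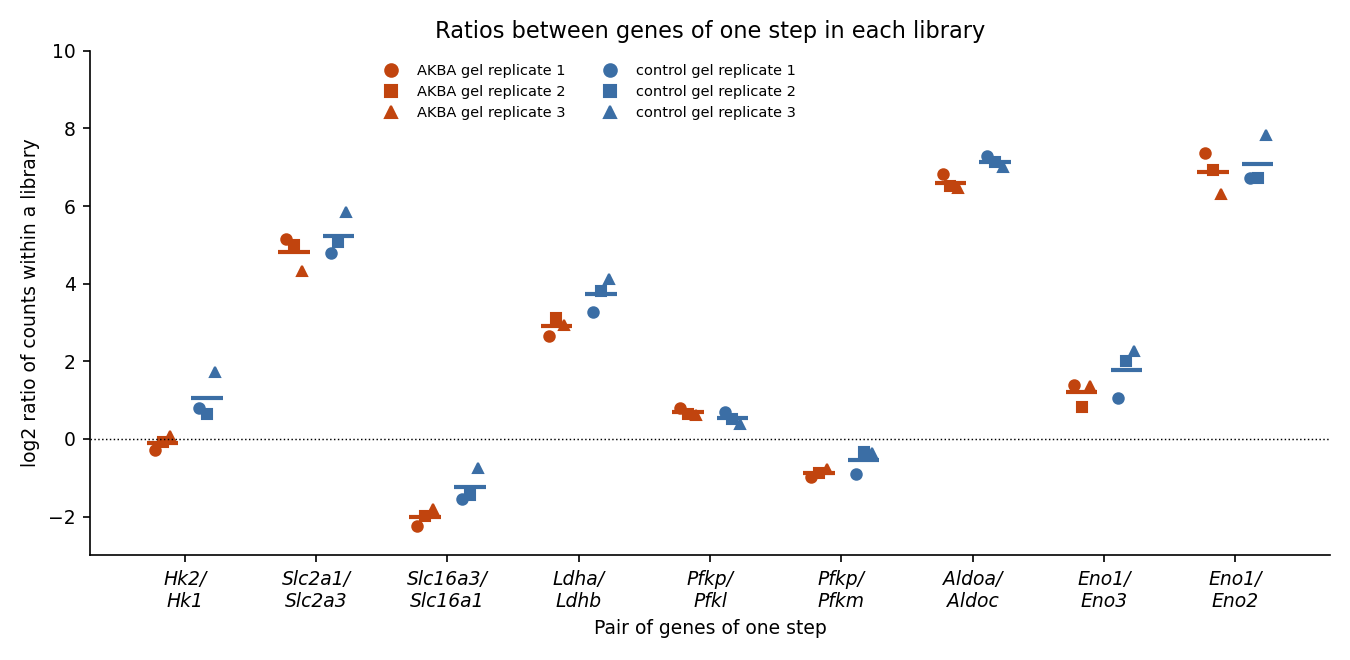
Log2 ratio of the counts of 2 genes of one step within each library, with 1 point per library (red, AKBA gel; blue, control gel; the shape gives the replicate) and a bar at the group mean; counts are not divided by gene length. In 4 of the 9 pairs (Hk2/Hk1, Slc16a3/Slc16a1, Ldha/Ldhb and Aldoa/Aldoc) every AKBA library lies below every control library.

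Among other glycolytic enzymes 18 of 24 listed genes were tested, and 0 passed by edgeR or by DESeq2, with 3 lower and 1 higher at an unadjusted edgeR p below 0.05. Their median log2 fold change was -0.22, with 12 of the 18 negative. Of these, 4 had every AKBA library below every control library (Pgam1, Pgam5, Bpgm and Eno1b) and 1, Aldoc, above. Eno1b may not be a separate case, because 84.5% of the 50-base words of its transcript occur in other genes, Eno1 among them. Those other genes held 97.8% of the counts of Eno1b and its copies together, so the Eno1b row may hold Eno1 reads. Among all genes tested 9.1% were below and 9.28% above. Pgam1, the main phosphoglycerate mutase, was at 119, 114 and 119.6 CPM in the AKBA libraries and at 127, 169 and 225 CPM in the control libraries (log2 fold change -0.56 ± 0.20, edgeR adjusted p = 0.339). The muscle-type genes Pgam2, Eno3 and Pfkm had log2 fold changes of 0.14 ± 0.22, 0.07 ± 0.20 and 0.07 ± 0.18, and their groups overlapped. Tpi1, triose phosphate isomerase, was at 357 ± 17.1 CPM under AKBA gel, against 423 ± 85.5 CPM under control gel, and Gpi1, glucose 6-phosphate isomerase, at 254 ± 17.5 CPM under AKBA gel, against 264 ± 37.1 CPM under control gel. Gapdh is not read as a level, because the row held 1203 counts in all 6 libraries together, and 90.2% of the counts of Gapdh and the genes that share 50-base words with it were assigned to those other genes.

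Hif1a encodes the oxygen-regulated subunit of HIF-1, a transcription factor that drives many glycolysis genes under low oxygen. It was at 171, 133 and 172 CPM in the AKBA libraries and at 204, 266 and 369.7 CPM in the control libraries. The groups did not overlap, with a log2 fold change of -0.82 ± 0.23 (SE) and an adjusted p of 0.331 by edgeR and 0.0317 by DESeq2. Of the 17 regulators of glycolytic flux, 0 passed by edgeR (2 lower at an unadjusted p below 0.05). Hif1a was the only one called by DESeq2 and the only one whose groups did not overlap. Over all genes, DESeq2 called 1.93%, and 9.1% had every AKBA library below every control library. Pfkfb3, which makes the activator of phosphofructokinase, was at 69.9 ± 16.5 CPM under AKBA gel, against 123 ± 41.5 CPM under control gel (log2 fold change -0.82 ± 0.27, edgeR adjusted p = 0.336). Txnip, which restrains glucose uptake, was at 423 ± 52.0 CPM under AKBA gel, against 325 ± 73.0 CPM under control gel (log2 fold change 0.38 ± 0.19), and Myc at 48.2 ± 5.37 CPM under AKBA gel, against 54.3 ± 12.4 CPM under control gel. The median of the list was -0.06.

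Hypoxia-inducible genes outside glycolysis had a median log2 fold change of -0.22 over 17 genes, 13 of them negative. By edgeR 0 passed, with 6 lower and 1 higher at an unadjusted p below 0.05, and by DESeq2 only Stc2, stanniocalcin 2, did. DESeq2 called 1.93% of all genes to which it gave an adjusted p. In 7 of the 17 every AKBA library was under every control library (Vegfa, Adm, Ndrg1, P4ha1, P4ha2, Kdm3a and Stc2) and in 0 above. Among all genes tested 9.1% were under and 9.28% above. Ndrg1, a stress-responsive gene, was at 66.1, 70.7 and 78.9 CPM in the AKBA libraries and at 91.6, 107 and 236 CPM in the control libraries. Stc2 was at 8.78, 6.80 and 10.7 CPM in the AKBA libraries and at 14.2, 16.6 and 15.5 CPM in the control libraries (log2 fold change -0.82 ± 0.18, DESeq2 adjusted p = 0.0153), so control replicate 3 was not its highest library. The 2 genes of this list with the highest mean CPM, which is not divided by gene length, overlapped between the groups. Bnip3l was at 222 ± 24.7 CPM under AKBA gel, against 239 ± 44.3 CPM under control gel, and Car12 at 206 ± 31.8 CPM under AKBA gel, against 222 ± 28.8 CPM under control gel.

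**Figure D5:**
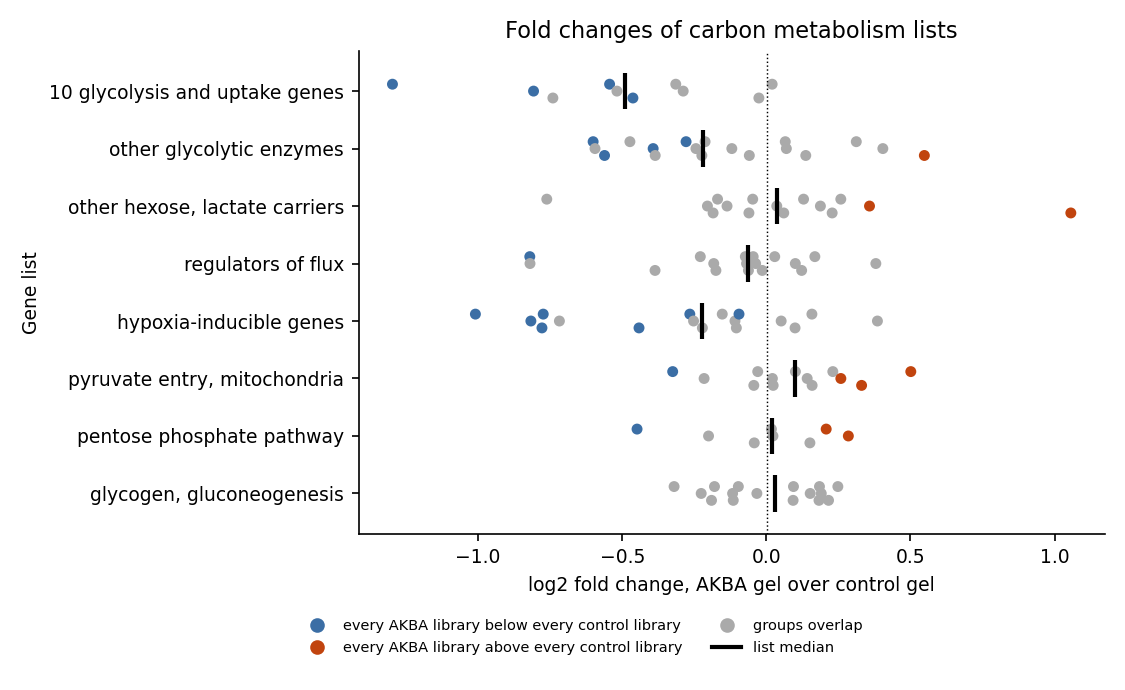
Log2 fold change (AKBA gel over control gel) for each tested gene of 8 lists of carbon metabolism (points; blue where every AKBA library is below every control library, red where every one is above, grey where the groups overlap), with the list median as a black bar and the median of all genes as a dotted line. The medians run from -0.49 for the 10 glycolysis and uptake genes to 0.10 for pyruvate entry into mitochondria.

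The neighbouring routes of glucose and pyruvate had medians close to that of all genes. For the 15 other hexose and lactate carriers it was 0.04, and 0 passed by edgeR (2 higher at an unadjusted p below 0.05). DESeq2 called 1 of them, Slc2a12, the carrier GLUT12, which was higher at 13.0, 11.0 and 9.97 CPM in the AKBA libraries, against 8.19, 4.19 and 3.98 CPM in the control libraries (log2 fold change 1.06 ± 0.30, DESeq2 adjusted p = 0.0431). Slc2a8 also had every AKBA library above every control library. Over all genes 9.28% did so, and DESeq2 called 1.93%. Slc5a1, the sodium-glucose cotransporter SGLT1, was at 84.4 ± 21.7 CPM under AKBA gel, against 97.3 ± 27.2 CPM under control gel. Bsg, basigin, the chaperone of MCT1 and MCT4, was at 293 ± 11.3 CPM under AKBA gel, against 322 ± 56.8 CPM under control gel.

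Pyruvate enters mitochondria through a carrier of 2 subunits, Mpc1 and Mpc2. Of the 13 genes of this list 3 (Mpc1, Mpc2 and Pdk3) had every AKBA library above every control library, as had 9.28% of all genes, and 1, Pdp2, had every one below, as had 9.1% of all genes. Pdk3, a kinase that switches pyruvate dehydrogenase off, had a log2 fold change of 0.26 ± 0.12, and Pdp2, a phosphatase that switches it on, one of -0.32 ± 0.19. Mpc2 was at 55.7, 55.3 and 41.5 CPM in the AKBA libraries and at 37.2, 33.1 and 37.4 CPM in the control libraries (log2 fold change 0.50 ± 0.14, edgeR adjusted p = 0.331). Mpc1 was at 19.8 ± 1.96 CPM under AKBA gel, against 15.7 ± 1.08 CPM under control gel (log2 fold change 0.33 ± 0.13, edgeR adjusted p = 0.346). The median of the 13 genes in this list was 0.10, and 0 passed by edgeR or DESeq2 (2 higher at an unadjusted edgeR p below 0.05), with Pdha1 at 149.97 ± 15.02 CPM under AKBA gel, against 153 ± 6.95 CPM under control gel, and Dld at 86.9 ± 1.79 CPM under AKBA gel, against 89.6 ± 9.57 CPM under control gel.

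The 8 genes of the pentose phosphate pathway had a median of 0.02 and the 16 tested genes of glycogen metabolism and gluconeogenesis 0.03, with 0 past the threshold by either tool. At an unadjusted edgeR p below 0.05 they had 1 lower and 1 higher gene, and 0 genes. In the pentose phosphate list H6pd had every AKBA library below every control library (log2 fold change -0.45 ± 0.16), and Rpia and Taldo1 had every one above (0.28 ± 0.12 and 0.21 ± 0.12). Among all genes tested 9.1% were below and 9.28% above. Tkt, transketolase, was at 258 ± 43.9 CPM under AKBA gel, against 254 ± 18.2 CPM under control gel, and Pgd at 176 ± 32.1 CPM under AKBA gel, against 174 ± 18.9 CPM under control gel. Pygm, the muscle glycogen phosphorylase, was at 228 ± 3.40 CPM under AKBA gel, against 247 ± 93.1 CPM under control gel, and Ugp2, which makes UDP-glucose, at 106 ± 25.7 CPM under AKBA gel, against 109 ± 35.0 CPM under control gel. No gene of the glycogen list had groups that did not overlap.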

How the data were processed

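RNA of 6 libraries was counted per gene. The authors deposited whole-number counts and FPKM per library, and, per the file headers, each gene's log2 fold change of AKBA gel to control gel with raw and adjusted p-values. The submitters' processing notes name CASAVA 1.8, RSEM and edgeR, and the build GRCm38. No source used here states rounding, the strand setting or how the deposited comparison was made, so overlapping and antisense genes cannot be told apart. The genes the authors marked significant had adjusted p up to 0.0494 and absolute log2 fold changes of at least 1.

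From the counts, edgeR 4.0.16 in R 4.3.3 was fitted over the whole table (TMM, default low-count filter, 2-sided quasi-likelihood F test, Benjamini-Hochberg adjustment over all genes tested, threshold 0.05), with standard errors as the size of the log2 fold change over the square root of F. The code of the fit was run on simulated data with known changes. How many of these it recovered at the spread of the real data is not reported here, so that run does not help to read the calls. DESeq2 1.42.0 was an alternative, beside other scalings and filters, the replicate number as a block and libraries left out. Isoform ratios used 0.5 added counts and exact permutation tests. Copies were searched as shared 50-base words in GENCODE M21 transcripts, which also gave gene positions, and promoter windows came from RefSeq (GRCm38.p6). Within each group every pair of libraries differed beyond counting noise (lowest chi-square per degree of freedom 28.3), and 3 libraries a group limit precision.

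All 10 members were named whatever their values. In other lists the rule named genes past the edgeR threshold or else the 2 with the highest mean CPM over all libraries, both genes of each isoform pair, Hif1a, Myc, Txnip and Gapdh, and allowed genes whose groups did not overlap beside their count. Pfkfb3, Pgam2 and Ly6g fall outside it and were named after their values had been seen. The activated keratinocyte genes were named as the whole list. The members and lists were chosen with earlier results of these data known.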

Additional observations from a re-analysis of the deposited data

How the results depend on the processing

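The number of the 10 genes called by edgeR was 0 under each edgeR alternative. DESeq2's Wald test called 1 of the 10 (Hk2) and 304 genes in all. Chosen after seeing the data, DESeq2 without control replicate 3 called 1 of the 10 and 50 genes (0.333%) in all, and with AKBA replicate 2 left out as well it called 31 genes (0.184%) and 0 of the 10. With a library left out, edgeR called 0 to 14 genes in all, the 14 without control replicate 1. The log2 fold changes of 8 genes (all but Hk1 and Aldoa) kept their sign in all 15 alternatives, and the lowest edgeR adjusted p among the 10 genes over them was 0.126, for Slc16a3.

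Values near 0 changed sign. With a library left out Hk1 ranged from -0.092 to 0.053 and Aldoa from -0.11 to 0.14. Hk1 was at 0.036 without AKBA replicate 2, 0.053 without control replicate 3 and 0.11 without both, and by DESeq2 at 0.044 and 0.10 in the last 2 settings. Aldoa was at -0.07 without AKBA replicate 1, -0.004 without AKBA replicate 2 and -0.11 without control replicate 2. The Eno1 to Eno2 difference was 0.06 without AKBA replicate 3, 0.15 without control replicate 3 and 0.11 without both. The cause was not tested.

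With the replicate number as a block the log2 fold change of Hk2 was -1.18 (edgeR adjusted p = 0.347) and 0 genes were called. Deviations of same-numbered libraries had correlations of 0.0724, 0.0185 and -0.327, and those of unlike-numbered libraries ran from -0.483 to 0.434. With so few libraries these values cannot decide whether the numbers pair the libraries, and the labels do not say. The 5.0 CPM filter and the other scalings moved the median of the 10 genes only between -0.50 and -0.47.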
